A study of Mus musculus with 8 samples.

Results

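Genes of protein folding and of the cellular response to unfolded proteins were compared in 8 Smart-seq2 libraries of sorted mouse ascites macrophages, 4 of ascites-enriched embryonic macrophages (AeEMs) and 4 of ascites-enriched monocyte-derived macrophages (AeMMs). The genes were taken by symbol from a list of 40, which holds chaperones and folding enzymes of the endoplasmic reticulum (ER), the sensors and effectors of the unfolded protein response (UPR), genes of the integrated stress response and heat shock proteins. All 40 were found among the 23469 genes of the deposited table, and 37 of them had a mean of at least 1 TPM (transcript abundance scaled to transcript length and library total) over the 8 libraries and were tested. Both groups came from female Ms4a3Cre-RosaTdT mice on a C57BL/6 background (genotype label Ms4a3TdT) that received no drug treatment. The mice were injected intraperitoneally at 4 to 5 weeks of age with ID8, a tumour line derived from the surface epithelium of the mouse ovary, and bloody ascites was taken 65 days later. In these mice Cre under the Ms4a3 gene, which is active in granulocyte-monocyte progenitors, switches on tdTomato for good. AeEMs are the tdTomato-negative and AeMMs the tdTomato-positive macrophages, so a monocyte-derived cell that escaped Cre would be sorted as AeEM. The study states 4 mice and 4 experimental runs for these libraries, but the labels do not say which libraries share a mouse.

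Proteins that enter the secretory pathway fold in the ER with the help of BiP (encoded by Hspa5) and other chaperones, lectins that hold immature glycoproteins, and enzymes that form disulfide bonds. When unfolded proteins build up, the sensors IRE1 (Ern1), ATF6 and PERK (Eif2ak3) raise the capacity for folding and for degradation and slow translation. PERK signals through the transcription factor ATF4, which other kinases of the integrated stress response also induce. Heat shock proteins serve the cytosol and mitochondria in the same manner, and most of them are present in unstressed cells while a few, such as the inducible Hsp70s, appear mainly under stress. Macrophages secrete and degrade large amounts of protein and use several of these ER chaperones to load MHC class I molecules.

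Values are on the deposited scale, read from the values themselves as log2(TPM + 1), and TPM is per transcript length, so that levels can be set side by side between genes. An adjustment, also read from the values, brings the mean of every gene close to one level in 3 sets, the first being both libraries of replicate 1, the next both of replicate 2, and the last the 4 libraries of replicates 3 and 4. As a result, the AeEM and AeMM values of replicate 1, and likewise those of replicate 2, lie nearly mirrored around the gene's mean. AeEMs and AeMMs were compared with limma, unpaired, over 8801 genes, at a Benjamini-Hochberg adjusted p of 0.05. Because the unpaired fit takes no account of that adjustment and its p-values are then too small, a fit that includes the 3 sets, called the set-term fit, is given beside it. Exact permutation tests, given for some genes, take no account of the 3 sets either, so their p-values can also be too small. Confidence intervals are from the set-term fit and are not adjusted for the number of genes.

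The ER stress response element (ERSE), a pair of short boxes through which ATF6 and XBP1 act, was looked for in the 250 bases before the RefSeq start of each gene, because it is what ties many of these genes to a shared control. RefSeq promoters (build GRCm38.p6, the assembly also called mm10) were at hand for 34 of the 40 genes, and not for Hsp90aa1, Hsp90ab1, Hspa8, Hyou1, Manf and Atf6. The motif, CCAAT and CCACG parted by any 9 bases and searched on both strands, was found before 8 of the 34 genes (23.5%) and in 0.113% of 32851 mouse promoters of the same length. The list was drawn up from known genes of the response, so that share describes the list. The element nearest the start is shown in capitals for each of the 8 genes, with 5 bases on either side, 5′ to 3′ on the strand of the gene. In Calr, Creld2 and Hsp90b1 the capitals read the motif in reverse, and Hsp90b1 holds 2 elements, of which the nearer is shown.
Hspa5: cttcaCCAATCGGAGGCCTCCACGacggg
Hsp90b1: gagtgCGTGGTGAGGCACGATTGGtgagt
Calr: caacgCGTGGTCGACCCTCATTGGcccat
Canx: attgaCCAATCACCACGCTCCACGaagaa
Pdia6: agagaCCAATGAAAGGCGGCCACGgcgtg
Creld2: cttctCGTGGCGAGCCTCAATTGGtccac
Dnajc3: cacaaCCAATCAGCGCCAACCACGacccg
Syvn1: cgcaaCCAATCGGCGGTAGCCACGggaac

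These stretches lie at chr2:34772020-34772048 (plus strand) for Hspa5, chr10:86705528-86705556 (minus) for Hsp90b1, chr8:84847070-84847098 (minus) for Calr, chr11:50325795-50325823 (minus) for Canx, chr12:17266486-17266514 (plus) for Pdia6, chr15:88819515-88819543 (plus) for Creld2, chr14:118937822-118937850 (plus) for Dnajc3 and chr19:6046527-6046555 (plus) for Syvn1. The element closest to a start was that of Syvn1, at bases -44 to -26, and the farthest of those shown was that of Calr, at -162 to -144. These distances are from the RefSeq starts. GENCODE places the start of Hspa5 at 34771970, so by that annotation its stretch lies inside the gene and not before it. Herpud1 held the related ERSE-II, ATTGG and CCACG parted by 1 base, at -52 to -42 (0.0304% of promoters), printed here from chr8:94386372-94386392 on the plus strand. The UPR element TGACGTGG was found before 0 of the 34 genes and in 0.563% of promoters.
Herpud1: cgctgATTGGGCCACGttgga

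No call was made among the chaperone and UPR genes. By the unpaired fit 0 of the 37 passed in favour of AeEMs and 0 in favour of AeMMs, where 1.25% of all 8801 genes were called higher and 1.16% lower. In the set-term fit 0 of the 37 were called as well, where 0.102% of all genes were called higher and 0.0568% lower. At an unadjusted p under 0.05, 12 of the 37 (32.4%) and 18% of all genes passed in the unpaired fit, and 6 of the 37 (16.2%) and 9.64% of all genes in the set-term fit. In 7 of the 37 genes (18.9%) the 4 AeEM and the 4 AeMM libraries did not overlap, where the share over all genes was 12.2%. AeEMs were higher in 3 of them (5.72% of all genes) and AeMMs in 4 (6.53% of all genes). The median difference of the 37 genes, AeEM minus AeMM, was 0.02 on the log2 scale, and that of all genes was -0.01.

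**Figure D1:**
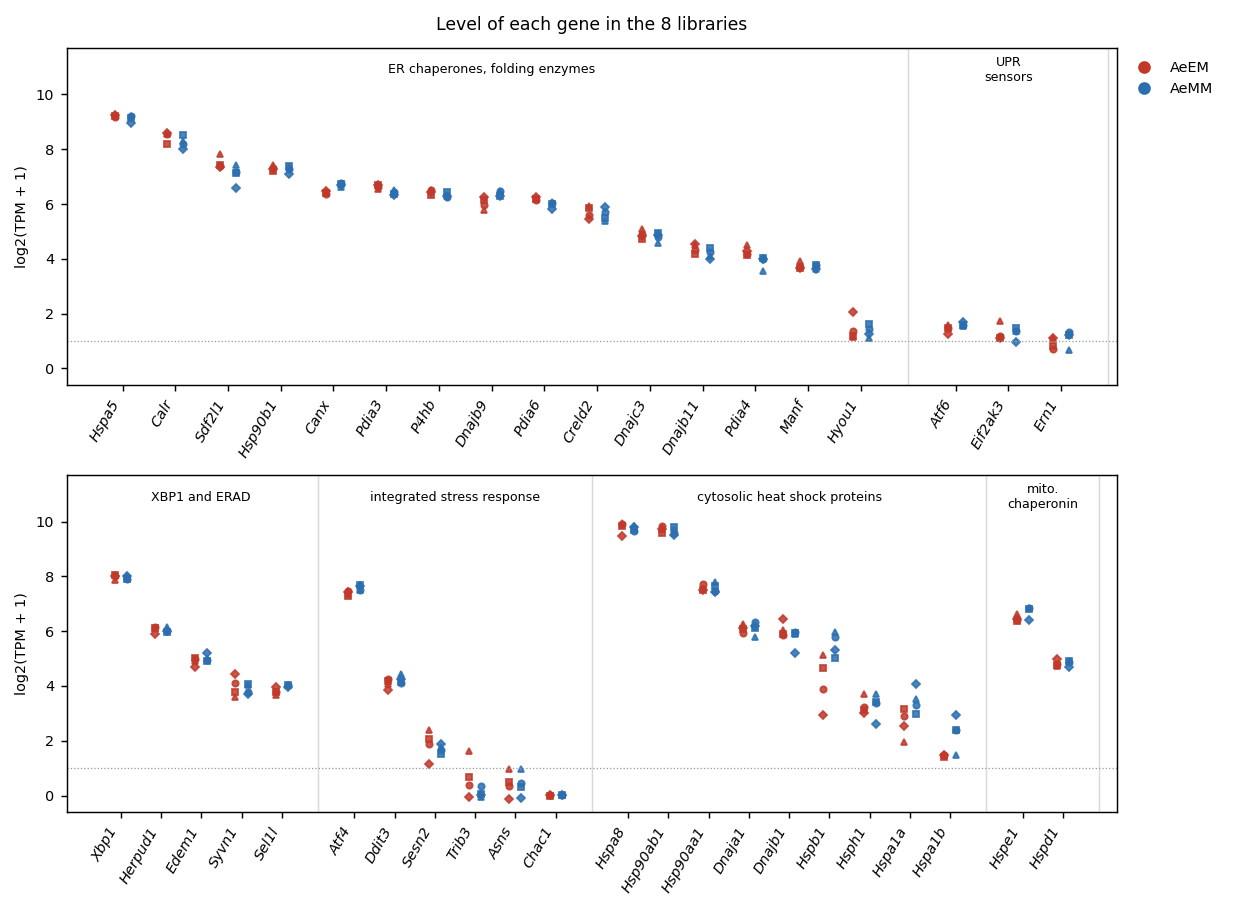
Level of each of the 40 genes, in log2(TPM + 1), in the 4 AeEM libraries (red) and the 4 AeMM libraries (blue), ordered within each arm by mean level; marker shapes give the replicate number (circle 1, square 2, triangle 3, diamond 4) and the dotted line marks 1 TPM. Hspa8, Hsp90ab1 and Hspa5 lie at 8.95 or above in every library, while the 3 UPR sensors and most targets of ATF4 lie near or below 2.

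ER chaperones and folding enzymes were abundant in both groups, and 13 of the 15 had a higher mean in AeEMs, while Canx and Dnajb9 had a higher mean in AeMMs. None of the 15 passed the test. Their median difference was 0.10, against -0.01 for all genes, and 86.7% of them had a positive difference, against 48.8% of all genes. Set by set, the number of positive differences among the 15 was 9 (replicate 1), 6 (replicate 2) and 13 (replicates 3 and 4), and 6 of the 15 kept one sign in all 3 sets. The matching shares of all genes by set were not computed, so these counts have no background. With replicates 3 and 4 only, the median difference of all genes was 0.0486. Hspa5, the BiP gene, had the highest level of the arm, at a mean of 577 TPM over the 8 libraries, higher than 98.7% of the genes tested. It stood at 9.16, 9.20, 9.25 and 9.26 in AeEM replicates 1 to 4 and at 9.21, 9.14, 9.20 and 8.95 in AeMM replicates 1 to 4. The groups overlapped, and AeMM replicate 4 was lowest. The difference was 0.09 (standard error 0.07, limma adjusted p = 0.543, 95% confidence interval -0.11 to 0.30). Hsp90b1, which encodes the ER member of the Hsp90 family, differed by 0.02 (95% confidence interval -0.22 to 0.26), and Hyou1, a large Hsp70 relative that recharges BiP, was the least abundant of the arm at 1.69 TPM. Hyou1 stood at 1.37, 1.19, 1.15 and 2.06 in AeEMs and at 1.43, 1.61, 1.11 and 1.24 in AeMMs, so that the spread within AeEMs was wider than the difference of 0.10.

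The paired lectins of the calnexin cycle, which retain newly made glycoproteins until they are folded, had mean differences of opposite sign, though not in every set. Canx, the membrane-bound lectin, stood at 6.37, 6.40, 6.45 and 6.48 in AeEMs and at 6.78, 6.72, 6.62 and 6.70 in AeMMs. All 4 AeEM libraries were below all 4 AeMM libraries, in TPM 81.9 to 88.3 against 97.6 to 109. The difference was -0.28 (limma adjusted p = 0.0524 with a standard error of 0.06, and p = 0.0286 by exact permutation), the smallest adjusted p among the 37 genes. That permutation p is the smallest that 70 splits into 4 and 4 allow, and these splits take no account of the 3 sets. The set-term fit gave a limma adjusted p of 0.397 (95% confidence interval -0.49 to -0.07). By set, the difference was -0.41, -0.32 and -0.20 in the order given above. The unpaired adjusted p lay below the threshold under 3 of 19 other settings, at 0.0377 without a filter on low values, 0.0392 with a filter of 5 TPM and 0.0441 without mitochondrial and ribosomal genes. Calr, the soluble lectin, stood at 8.54, 8.21, 8.55 and 8.61 in AeEMs and at 8.19, 8.52, 8.31 and 8.01 in AeMMs. Its groups overlapped, with AeEM replicate 2 inside the AeMM range, and the difference was 0.22 (standard error 0.12, limma adjusted p = 0.392, 95% confidence interval -0.11 to 0.55). By set, Calr differed by 0.34, -0.31 and 0.43, so that in replicate 2 both lectins were lower in the AeEM library.

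Both lectin genes hold an ERSE. The 250 bases before the start of each are shown, since these neighbours in function had mean differences of opposite sign over all libraries. The strand is minus in both, the capitals mark the ERSE, and the stretches are chr11:50325674-50325923 for Canx and chr8:84846932-84847181 for Calr.
Canx: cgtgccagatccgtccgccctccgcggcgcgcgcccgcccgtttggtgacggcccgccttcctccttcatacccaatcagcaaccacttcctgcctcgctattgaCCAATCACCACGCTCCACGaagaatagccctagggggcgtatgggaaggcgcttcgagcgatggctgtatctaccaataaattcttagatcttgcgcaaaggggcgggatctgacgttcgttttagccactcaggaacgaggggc
Calr: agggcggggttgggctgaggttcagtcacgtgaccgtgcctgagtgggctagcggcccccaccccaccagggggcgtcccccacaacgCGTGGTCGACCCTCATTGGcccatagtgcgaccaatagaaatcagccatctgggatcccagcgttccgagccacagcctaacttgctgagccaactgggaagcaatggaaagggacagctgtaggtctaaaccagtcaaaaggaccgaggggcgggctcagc

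Over the 8 genes with an ERSE, 7 had a positive difference and 1 a negative one, and the differences ran from -0.28 in Canx to 0.22, with a median of 0.09. All but Syvn1 belong to the ER chaperones and folding enzymes, where 13 of 15 differences were positive, against 48.8% of all genes. The count thus does not set the genes with an ERSE apart from their arm. Set by set, positive differences numbered 5, 3 and 7 of the 8, in the same order, again without a share of all genes by set. None of the 8 passed the test.

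The disulfide isomerases, which form and rearrange disulfide bonds, had higher means in AeEMs in all 4 genes listed. Pdia3 encodes the isomerase that works with both lectins. It stood at 6.63, 6.70, 6.55 and 6.70 in AeEMs and at 6.44, 6.36, 6.53 and 6.33 in AeMMs, without overlap, although AeEM replicate 3 and AeMM replicate 3 were 0.02 apart on the printed scale. The difference was 0.23 (standard error 0.07, limma adjusted p = 0.129 unpaired and 0.513 in the set-term fit). Pdia6 stood at 6.15, 6.17, 6.20 and 6.27 in AeEMs and at 6.04, 6.00, 6.07 and 5.81 in AeMMs, again without overlap. Its difference was 0.22 (standard error 0.08, limma adjusted p = 0.174 unpaired and 0.559 in the set-term fit). Pdia4, the least abundant of the isomerases at 16.2 TPM, stood at 4.16, 4.14, 4.49 and 4.30 in AeEMs and at 4.02, 3.55 and 3.99 in AeMM replicates 2, 3 and 4, with AeMM replicate 1 between replicates 4 and 2. Here too the groups did not overlap, and AeMM replicate 3 lay well below the other AeMMs. The difference of Pdia4 was 0.38 (standard error 0.13, limma adjusted p = 0.174 unpaired and 0.518 in the set-term fit), and it was 0.16, 0.12 and 0.63 in the 3 sets, in that order. P4hb, the classical protein disulfide isomerase, overlapped between groups, with a difference of 0.12 (limma adjusted p = 0.422).

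**Figure D2:**
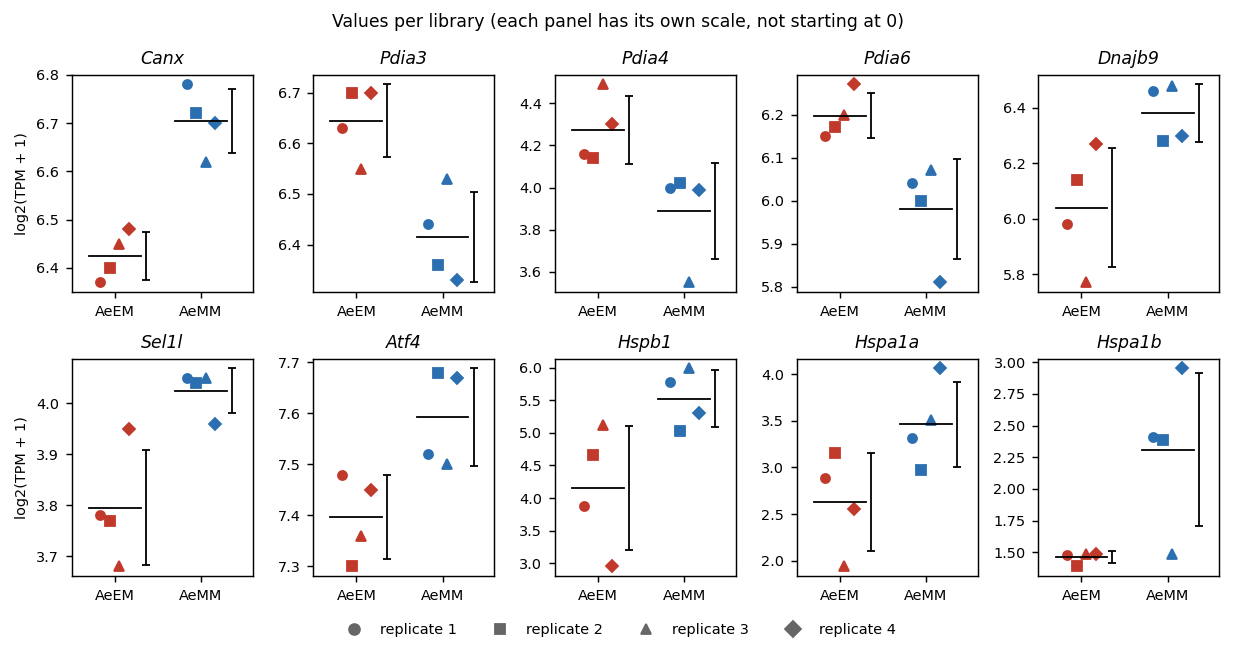
Values per library, in log2(TPM + 1), of the 7 genes whose groups did not overlap and of Hspb1, Hspa1a and Hspa1b, with AeEMs in red and AeMMs in blue; shapes stand for replicates, long horizontal lines for means over 4 libraries and bars for the SD, and each panel has its own axis. In Sel1l the groups are 0.01 apart, in Canx AeEMs end at 6.48 and AeMMs begin at 6.62.

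Co-chaperones with a J domain, which stimulate BiP, had mean differences of both signs, and none passed the test. Dnajb9 stood at 5.98, 6.14, 5.77 and 6.27 in AeEMs and at 6.46, 6.28, 6.48 and 6.30 in AeMMs. All AeEM libraries were below all AeMM libraries, and the nearest values of the groups were 6.27 and 6.28. The difference was -0.34 (standard error 0.11, limma adjusted p = 0.154 unpaired and 0.483 in the set-term fit). Dnajb11 and Dnajc3 had differences of 0.21 and 0.09, both with overlapping groups. Sdf2l1, a small ER protein that partners Dnajb11, had a difference of 0.42 (standard error 0.17, limma adjusted p = 0.244, 95% confidence interval -0.03 to 0.88). It ran from 7.34 to 7.82 in AeEMs and from 6.59 to 7.41 in AeMMs, and AeMM replicate 4 was the low value. Without AeMM replicate 4 the difference of Sdf2l1 was 0.26. The secreted ER proteins Manf and Creld2 differed by 0.03 and 0.08, less than the SD of 0.08 to 0.23 within their groups.

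**Figure D3:**
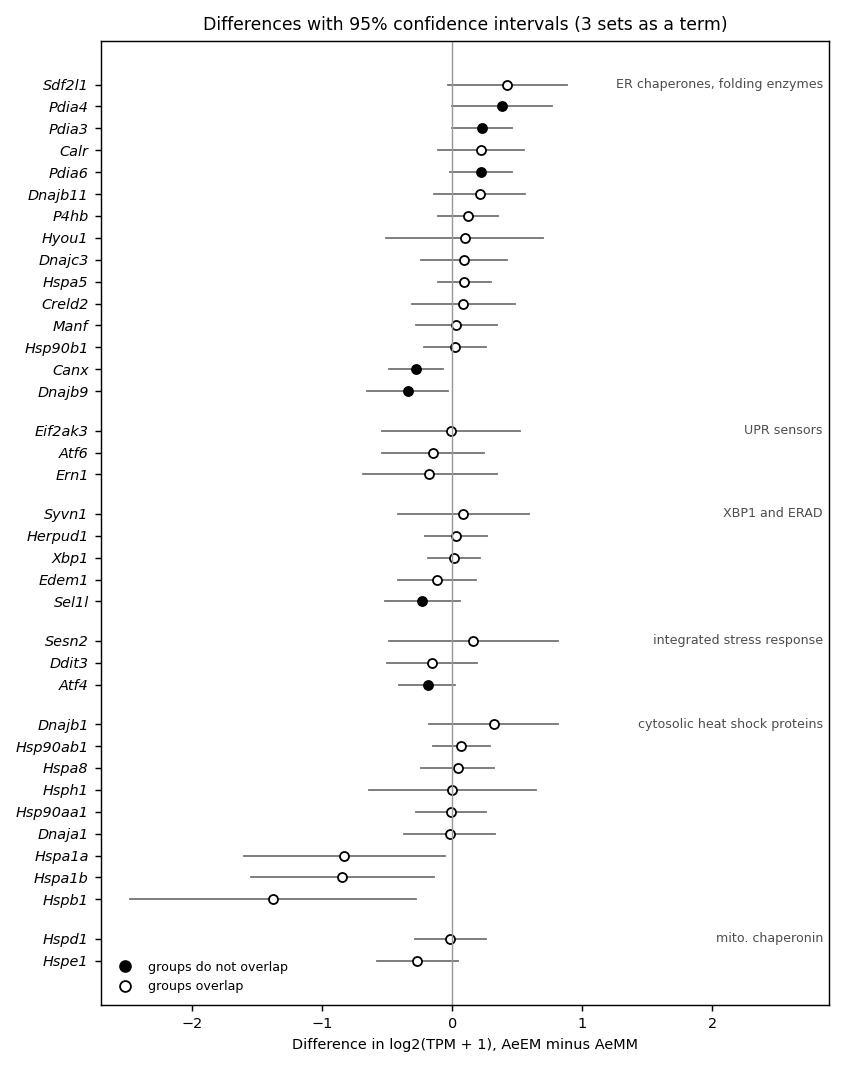
Difference in log2(TPM + 1), AeEM minus AeMM, of the 37 genes tested, with 95% confidence intervals from the set-term fit (n = 4 libraries per group), by arm and ordered within it; filled points mark genes whose groups do not overlap. The ER chaperones lie mostly to the right of 0, with Canx and Dnajb9 to the left, and Hspb1 lies farthest left at -1.38.

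The UPR sensors were expressed at low levels, between 1.04 and 1.88 TPM on average, and did not pass the test. Ern1, which encodes the kinase and RNase IRE1, stood at 0.71, 0.81, 1.09 and 1.09 in AeEMs and at 1.31, 1.22, 0.68 and 1.20 in AeMMs, so that the groups overlapped through AeMM replicate 3. Its difference was -0.18 (limma adjusted p = 0.655, 95% confidence interval -0.69 to 0.34). Atf6, whose product is cut free from the membrane to act as a transcription factor, stood at 1.48, 1.46, 1.59 and 1.25 in AeEMs and at 1.58, 1.58, 1.54 and 1.70 in AeMMs. Its difference was -0.15 (limma adjusted p = 0.555, 95% confidence interval -0.54 to 0.24). Eif2ak3, the PERK gene, stood at 1.19, 1.10, 1.72 and 1.12 in AeEMs and at 1.38, 1.47, 1.37 and 0.95 in AeMMs, with a difference of -0.01 (95% confidence interval -0.54 to 0.52). A difference of 0.2 on the log2 scale in either direction lay within the intervals of all 3 genes.

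Xbp1, the transcription factor that IRE1 activates by splicing its mRNA, was abundant at 251 TPM, above 97.3% of the genes tested. It stood at 8.02, 8.04, 7.87 and 8.01 in AeEMs and at 7.91, 7.92, 8.02 and 8.03 in AeMMs. The values of both groups lay within the same narrow range, and the difference was 0.01 (standard error 0.06, limma adjusted p = 0.94, 95% confidence interval -0.19 to 0.21). The table counts reads per gene, so spliced and unspliced Xbp1 cannot be told apart. Among genes of ER-associated degradation, by which misfolded proteins are returned to the cytosol, Herpud1 differed by 0.03 and Syvn1, the ubiquitin ligase also called HRD1, by 0.08. Sel1l, which encodes the partner of that ligase, stood at 3.78, 3.77, 3.68 and 3.95 in AeEMs and at 4.05, 4.04, 4.05 and 3.96 in AeMMs. The groups did not overlap by a margin of 0.01, between the replicates numbered 4. The difference of Sel1l was -0.23 (standard error 0.09, limma adjusted p = 0.201 unpaired and 0.624 in the set-term fit). Edem1, a lectin that directs glycoproteins to degradation, had a difference of -0.12 and overlapping groups. Over the 5 genes of this arm the median difference was 0.01.

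Atf4, the central transcription factor of the integrated stress response, was present at 180 TPM, whereas 3 genes that it induces did not reach the filter of 1 TPM. Atf4 stood at 7.48, 7.30, 7.36 and 7.45 in AeEMs and at 7.52, 7.68, 7.50 and 7.67 in AeMMs. All 4 AeEM libraries were below all 4 AeMM libraries, with 7.48 and 7.50 as the nearest values. The difference was -0.19 (standard error 0.07, limma adjusted p = 0.185 unpaired and 0.568 in the set-term fit), and it was -0.04, -0.38 and -0.18 in the 3 sets, in that order. ATF4 protein is controlled mainly by translation, which these mRNA values do not measure. Ddit3, which encodes the transcription factor CHOP, stood at 4.25, 4.17, 4.08 and 3.86 in AeEMs and at 4.11, 4.16, 4.44 and 4.27 in AeMMs, with overlapping groups and a difference of -0.16 (standard error 0.11, limma adjusted p = 0.535). Sesn2, a stress-induced inhibitor of mTORC1 signalling, averaged 2.56 TPM and stood at 1.89, 2.05, 2.39 and 1.16 in AeEMs and at 1.67, 1.52, 1.77 and 1.89 in AeMMs. The AeEM libraries spread wider than the AeMM libraries and enclosed them, and the difference was 0.16.

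The genes below the filter were Trib3, Asns and Chac1, and they were not tested. Trib3, a pseudokinase induced by ATF4 and CHOP, stood at 0.37, 0.69, 1.63 and -0.06 in AeEMs and at 0.34, 0.06, -0.06 and 0.01 in AeMMs, where values below 0 come from the adjustment. Only AeEM replicate 3, at 2.09 TPM, was above 1 TPM. Asns, which makes asparagine, averaged 0.404 TPM and reached 0.97 on the log2 scale in AeEM replicate 3 and in AeMM replicate 3. Chac1, which degrades glutathione, lay between -0.01 and 0.03 in every library. The letters TGATGNAA, the core of the element at which ATF4 binds with C/EBP partners, stood before Asns, Chac1 and Herpud1 among the 34 genes with a promoter (8.82%) and in 3.45% of all promoters.

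The constitutive heat shock genes Hspa8 and Hsp90ab1 were among the most abundant transcripts, and their mean differences were smaller than the SD within either group. Hspa8, the constitutive Hsp70, averaged 881 TPM. It stood at 9.93, 9.84, 9.95 and 9.47 in AeEMs and at 9.67, 9.71, 9.83 and 9.82 in AeMMs, with AeEM replicate 4 lowest, and the difference was 0.04 (standard error 0.10, 95% confidence interval -0.24 to 0.32, limma adjusted p = 0.895). Hsp90ab1, the constitutive cytosolic Hsp90, averaged 831 TPM and differed by 0.07 (95% confidence interval -0.15 to 0.29). Its stress-inducible relative Hsp90aa1 averaged 191 TPM and differed by -0.01 (95% confidence interval -0.28 to 0.26). The J-domain proteins Dnaja1 and Dnajb1 differed by -0.02 and 0.32, and Hsph1, a nucleotide exchange factor of Hsp70, had equal means of 3.28. In Dnajb1 the replicates numbered 4 lay farthest apart, at 6.45 in AeEM and 5.22 in AeMM, the ends of the range, and it was -0.09 and -0.01 in replicates 1 and 2.

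The largest differences of all 37 genes were in 3 heat shock genes with higher means in AeMMs, of which none passed the test. Hspb1, the small heat shock protein Hsp27 (mouse Hsp25), stood at 3.88, 4.66, 5.12 and 2.95 in AeEMs and at 5.78, 5.03, 5.99 and 5.31 in AeMMs. AeMM replicate 2 was below AeEM replicate 3, and otherwise the AeMM values were above the AeEM values. In TPM, AeEMs ran from 6.71 to 33.7 and AeMMs from 31.7 to 62.7. The difference was -1.38 (limma adjusted p = 0.141 with a standard error of 0.43, and p = 0.0571 by exact permutation), a fold of 0.385 on the log2(TPM + 1) scale. It was -1.90, -0.37 and -1.62 by set, and the set-term fit gave a limma adjusted p of 0.411 (95% confidence interval -2.48 to -0.28). The SD of 0.95 among AeEMs was the widest of any group of the 37 genes.

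The inducible Hsp70 genes Hspa1a and Hspa1b are neighbours on chromosome 17 (mm10), at 34969190 to 34972156 and 34956436 to 34959238, and 99.4% of their aligned coding bases are the same. Reads from the coding part can therefore be split between them or lost, and their single values are uncertain. Hspa1a stood at 2.89, 3.15, 1.94 and 2.55 in AeEMs and at 3.31, 2.97, 3.51 and 4.06 in AeMMs, with AeMM replicate 2 below AeEM replicate 2. The difference was -0.83 (limma adjusted p = 0.182 with a standard error of 0.30, and p = 0.0571 by exact permutation), and it was 0.18 in replicate 2, against -0.42 and -1.54 in replicate 1 and in replicates 3 and 4. Hspa1b stood at 1.48, 1.39, 1.49 and 1.49 in AeEMs and at 2.41, 2.39, 1.49 and 2.95 in AeMMs. The value 1.49 was identical to the last digit in AeEM replicates 3 and 4 and AeMM replicate 3. Of 6103 genes with some tied values among replicates 3 and 4, all 6103 had the tie at their lowest value, so 1.49 is the lowest value listed for Hspa1b in that set, and what it was before the adjustment was not tested. The difference of Hspa1b was -0.85 (standard error 0.26, limma adjusted p = 0.138 unpaired and 0.425 in the set-term fit). Leaving out AeMM replicate 3 gave an unpaired limma adjusted p of 0.0162, the lowest for any of the 37 genes under any setting. That library is the only AeMM library at the tied value, so leaving it out also removes the only overlap between the groups. Summed per library, a choice made after seeing the data, both genes together stood at 3.20, 3.39, 2.49 and 2.94 in AeEMs and at 3.83, 3.59, 3.72 and 4.55 in AeMMs. The groups did not overlap in the sum, with a difference of -0.92 (exact permutation p = 0.0286). Any gene without overlap reaches that p, and 12.2% of all genes did not overlap. The sum includes the tied values of Hspa1b, and no set-term fit was run on it.

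The mitochondrial chaperonin is built from Hsp60 (Hspd1) and its lid Hsp10 (Hspe1), whose genes lie head to head on chromosome 1 of mm10. The GENCODE start of Hspd1 was at 55088243 on the minus strand and that of Hspe1 at 55088132 on the plus strand. In that annotation both genes overlap at their starts, and without strand in the counts reads there cannot be told apart. Hspe1 stood at 6.40, 6.37, 6.62 and 6.43 in AeEMs and at 6.84, 6.80, 6.85 and 6.41 in AeMMs, so that AeMM replicate 4 was the only AeMM inside the AeEM range. Its difference was -0.27 (standard error 0.11, limma adjusted p = 0.236, 95% confidence interval -0.58 to 0.04). Hspd1 stood at 4.82, 4.77, 4.74 and 4.99 in AeEMs and at 4.86, 4.91, 4.91 and 4.70 in AeMMs, with a difference of -0.02 (95% confidence interval -0.29 to 0.26). Heat shock elements were searched as GAA, TTC and GAA, or TTC, GAA and TTC, with any 2 bases between the triplets, on both strands. The RefSeq windows of both genes overlap and each held a pair of overlapping matches, of which the nearer to the start is capitalised. The stretches read the same region from opposite strands, chr1:55088054-55088076 (minus) for Hspd1 and chr1:55088059-55088081 (plus) for Hspe1. The motif stood in 0.466% of all promoters and, of the 34 genes with a promoter, before the RefSeq starts of these 2. RefSeq and GENCODE place the start of Hspd1 at different bases. By the GENCODE start the stretch shown for Hspd1 lies inside the gene and not before it.
Hspd1: ttccgGAAGGTTCTAGAAcggac
Hspe1: ttctaGAACCTTCCGGAAggccc

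Of 135 tested genes on 8 other lists of the same pathways, chosen with earlier results of these data known, 2 were called in the unpaired fit (1.48%), against 2.41% of all genes. In 14 genes of ER-associated degradation, 14 other ER oxidoreductases and prolyl isomerases, 24 genes of the translocon, signal peptidase and glycosylation, 17 other genes of the integrated stress response, 11 aminoacyl-tRNA synthetases and 14 of TRiC and prefoldin, 0 were called in either direction, and the median differences of these lists ran from -0.03 to 0.11. Of 28 tested heat shock factors, co-chaperones and other heat shock proteins, Fkbp4 was called higher in AeEMs in the unpaired fit, and 27 did not pass. Fkbp4, a prolyl isomerase that works with Hsp90, stood at 4.37, 4.37, 4.53 and 4.60 in AeEMs and at 3.93, 3.94, 3.98 and 3.48 in AeMMs, without overlap. Its difference was 0.64 (standard error 0.13, limma adjusted p = 0.041 unpaired and 0.263 in the set-term fit). Of 13 mitochondrial chaperones and proteases, Htra2 was called higher in AeEMs in the unpaired fit, and 12 did not pass. Htra2, a serine protease of the intermembrane space, stood at 3.87, 3.92, 3.98 and 4.39 in AeEMs and at 3.28, 3.29, 3.04 and 3.08 in AeMMs. It was 1.83-fold higher in AeEMs on the log2(TPM + 1) scale (limma adjusted p = 0.0124 unpaired and 0.13 in the set-term fit).

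Single libraries held many of the extreme values. AeMM replicate 4 was the lowest of the 8 libraries in 14 of the 37 genes, among them 8 of the 15 ER chaperones and folding enzymes. The highest value of an ER chaperone or folding enzyme was in AeEM replicate 3 for 7 and in AeEM replicate 4 for 6 of the 15 genes. Replicates 1 and 2 seldom held an extreme value, and since each of them is a set of 2 libraries centred by the adjustment, their values cannot be compared in spread with those of replicates 3 and 4. The summed TPM of the 15 genes was 1740 to 1920 in AeEMs and 1500 to 1770 in AeMMs, and that of all 40 genes was 0.464% to 0.494% of the library total in AeEMs and 0.433% to 0.490% in AeMMs.

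**Figure D4:**
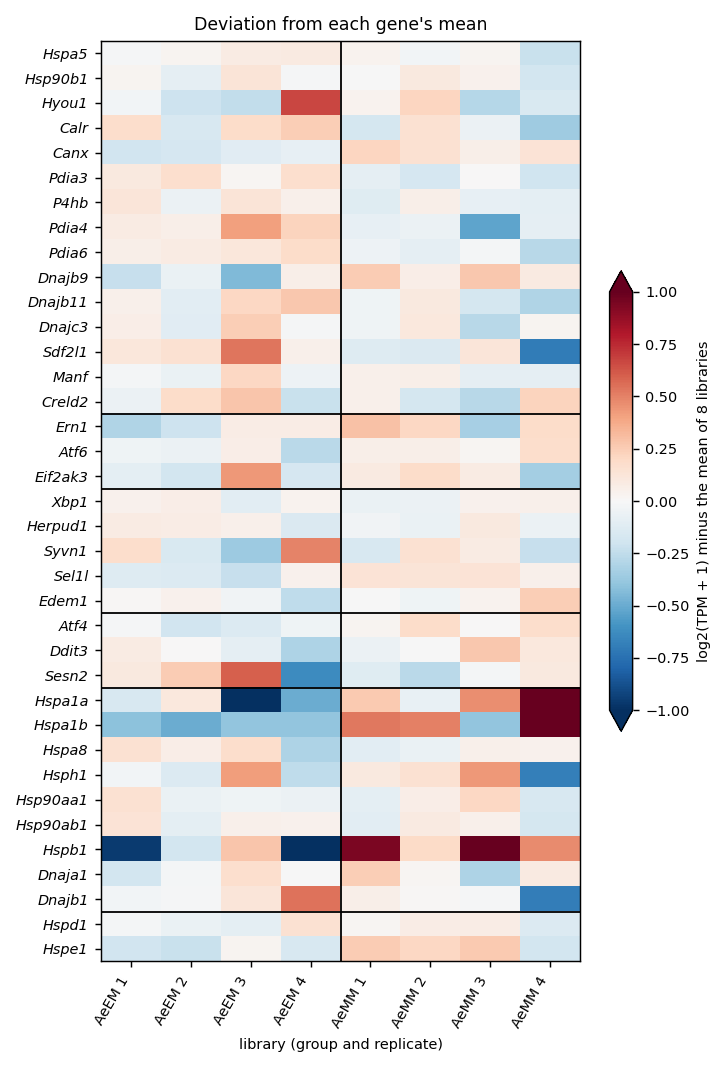
Deviation of each tested gene from its mean over the 8 libraries, in log2(TPM + 1), with libraries in columns (AeEM left, AeMM right of the line) and genes in rows by arm; red is above and blue below the mean, and colours end at 1 and -1. Hspb1, Hspa1a and Hspa1b show the strongest colours, and AeMM replicate 4 is blue in most ER chaperones.

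The macrophage genes Adgre1, Csf1r, Cd68, Lyz2, Itgam, Mertk and Fcgr1 were all above 1 TPM on average and summed to 69200 to 77300 TPM in AeEMs and 70300 to 85400 TPM in AeMMs. Dendritic cell markers summed to 44.1 to 106 TPM in AeEMs and 6.29 to 13.4 TPM in AeMMs, with Flt3, Zbtb46, Xcr1 and Clec9a below 1 TPM. Most of the sum in AeEMs was Cd209a, at 5.83, 6.29, 6.60 and 5.21 in AeEMs and 2.58, 2.02, 3.17 and 1.56 in AeMMs (limma adjusted p = 0.00294 unpaired and 0.0326 in the set-term fit). Itgax was also called higher in AeEMs in the unpaired fit but not in the set-term fit (difference 1.05, limma adjusted p = 0.0109 unpaired and 0.115 in the set-term fit). Neutrophil and monocyte markers summed to 37.9 to 41.1 TPM in AeEMs and 76.7 to 88.5 TPM in AeMMs, with S100a9, Retnlg, Elane and Mpo below 1 TPM. S100a8, Prtn3 and Ly6c2 were called lower in AeEMs in the unpaired fit, with differences of -1.03, -0.96 and -1.55 (limma adjusted p = 0.00437, 0.00394 and 0.0478). None of them passed in the set-term fit (limma adjusted p = 0.0605, 0.0605 and 0.251). The study sorted both groups as negative for Ly6G, Siglec F and Ly6C by antibody, so Ly6c2 is read here in cells gated against surface Ly6C. B and plasma cell markers summed to 181 to 301 TPM in AeEMs and 180 to 374 TPM in AeMMs, with Jchain and Sdc1 below 1 TPM. Erythroid markers summed to 7660 to 12700 TPM in AeEMs and 4210 to 10500 TPM in AeMMs. All 6 T and NK cell markers were below 1 TPM, with sums of 0.211 to 2.54 TPM in AeEMs and 2.35 to 6.54 TPM in AeMMs, and 6 of 8 mesothelial and epithelial markers were below 1 TPM, with sums of 3.71 to 6.65 TPM and 3.98 to 6.15 TPM. Of 12 immediate early genes tested, which respond to cell handling as the inducible heat shock genes do, 0 were called, where 2.41% of all genes were, so the count says little for so short a list. Their summed level was 1200 to 1400 TPM in AeEMs and 1200 to 1360 TPM in AeMMs. The part of these other cells in the differences above was not tested, and in bulk samples fewer cells of a type and less RNA per cell cannot be told apart.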

How the data were processed

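Per the labels, Smart-seq2 libraries were made from sorted macrophages. The authors trimmed reads (fastp), aligned them to mm10 (STAR 2.7.2a) and summarised them by gene (featureCounts of Subread). The deposited values were read as log2(TPM + 1), adjusted by the authors between 3 sets of libraries. Scale and adjustment are inferred from the values (back-transformed libraries sum to near one total, and gene means are nearly equal across sets), since these steps are not given in the sources used here. The values were used as deposited and back-transformed only for TPM. Depth is unknown, since no counts were used, and precision rests on 4 libraries per group.

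Groups were compared with limma 3.58.1 in R 4.3.3 (unpaired, with the mean-variance trend) on the 8801 genes whose mean reached 1 TPM, with Benjamini-Hochberg adjustment. Single genes had an exact permutation test, two-sided, on all 70 splits. In simulated set-adjusted values the unpaired fit made too many false calls, and the set-term fit did not. Both fits missed part of the known changes put into genes that varied widely between libraries, large changes included, so an absent call in such a gene (Hspb1, for one) is weak evidence of no difference. Because only the replicate number is shared and the adjustment sets the deviations of replicates 1 and 2 against each other, libraries were not paired. The titles number the libraries as biological replicates, without saying which mouse each came from. Gene positions are from GENCODE M21 and promoters from RefSeq (GRCm38.p6).

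All 40 genes are accounted for. Each library is given for genes whose groups do not overlap, for the most and least abundant of each arm, for the regulators and for a few others chosen after their values were seen (Calr, Hspb1 and Hspa1a). Of other lists, genes past the threshold are named. Members and lists were chosen with earlier results of these data known. Alternatives changed the pseudocount, filter, scaling, trend, block, sets and libraries.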

Additional observations from a re-analysis of the deposited data

Results flagged for a closer look

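Within each group of 4 libraries, the gap between the extreme library and its neighbour was compared with the whole range (Dixon's ratio, at its 95% critical value). Of 74 groups examined, that is 37 genes in AeEMs and AeMMs, 10 exceeded it. The critical value assumes 4 independent values, which values centred by set are not. The flagged share over all genes was not computed, so whether 10 is more than usual cannot be said. The values of replicates 1 and 2 are centred as sets of 2, so the libraries are not equally free to stand apart. In AeMMs the lowest library was AeMM replicate 4 for Sel1l (ratio 0.906), Dnajb1 (0.899) and Hspe1 (0.869), and AeMM replicate 3 for Pdia4 (0.923) and Ern1 (0.838). In AeEMs the highest library was AeEM replicate 3 for Eif2ak3 (0.858) and Manf (0.844) and AeEM replicate 1 for Hsp90aa1 (0.850). The lowest was AeEM replicate 4 for Herpud1 (0.897) and AeEM replicate 2 for Hspa1b (0.864), where AeEM replicates 3 and 4 share the lowest value listed in their set.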

How the results depend on the processing

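Among all genes, the set-term fit called 9 higher and 5 lower in AeEMs, against 110 and 102 unpaired. With the replicate block the counts were 3 and 2, and with replicates 3 and 4 only 0 and 0. The shared replicate numbers are not stated to pair libraries, and the adjustment sets replicates 1 and 2 against each other, so their correlation is no check of the pairing. Without a trend 58 genes were lower. Leaving out 1 library gave 40 to 106 higher and 31 to 113 lower. Among the 37 genes, the count higher was 0 under every setting, and the count lower was 1 with no filter, with a filter of 5 TPM and without mitochondrial and ribosomal genes (Canx in each), and 0 to 1 when 1 library was left out (Hspa1b without AeMM replicate 3). With no filter the median of the integrated stress response was 0.003. With replicates 3 and 4 only, the median was 0.193 for ER chaperones, 0.147 for UPR sensors, -0.088 for XBP1 and ER-associated degradation and -0.026 for the mitochondrial chaperonin. The median of all genes was 0.0486 under that setting and -0.0064 in the main fit, so it moved as well. The cause of these moves was not tested. The filter of 5 TPM left no UPR sensor. The direction was kept under every alternative by 23 of the 37 genes. Most alternatives refit the same libraries, so a kept direction is partly built in. Between the 3 sets, which share no library, 12 of the 37 genes had the same direction. Neither share was computed over all genes.

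Depth is unknown, so no limit can be set for genes listed near 0.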
